A study of Homo sapiens with 12 samples.

Results

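The 6 genes described here are ADM, VEGFA, STC1, DDIT4, HK2 and SLC2A1, which low oxygen is known to induce or which bring glucose into the cell. All probe sets with values that the platform annotation pairs with one of these symbols were taken, 12 of the 16376 with values used here (6 of 8545 genes). VEGFA had 4 probe sets, STC1 had 3, SLC2A1 had 2, and ADM, DDIT4 and HK2 had 1 each. Total RNA of SNB19 and SF539, 2 established human glioblastoma cell lines, was measured on 12 Affymetrix U133A 2.0 arrays. Each line received a scramble siRNA, PARK2 siRNA1 or PARK2 siRNA2 with the lipid reagent Lipofectamine RNAiMAX and was harvested after 48 h, giving 6 groups of 2 arrays. PARK2 encodes the ubiquitin ligase parkin, known for tagging damaged mitochondria. SNB19 was grown in DMEM and SF539 in MEM, both with serum, so line and medium cannot be told apart, and the labels name no low-oxygen treatment.

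When oxygen is plentiful, prolyl hydroxylases mark the HIF alpha subunits for destruction through the VHL ubiquitin ligase. When it is scarce, the alpha subunits pair with ARNT and bind DNA at short cores, ACGTG or GCGTG, near their target genes. ADM, VEGFA and STC1 encode secreted proteins. ADM is a vessel-widening peptide, VEGFA is the main growth factor of new vessels, and STC1 is a glycoprotein hormone. DDIT4 (REDD1) restrains the growth kinase complex mTORC1. SLC2A1 (GLUT1) is the glucose transporter of most tumour cells, and HK2 phosphorylates the glucose that has entered. In glioblastoma these genes are known for marking the poorly oxygenated tissue around necrosis.

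The promoter sequences are shown because they differ in how many of these cores they hold, while the 4 genes they belong to all fell in SNB19 and rose in SF539. RefSeq's promoter table (GRCh38.p14) held 4 of the 6 genes, and VEGFA and STC1 are not in it. The windows are the 250 bases before the transcription start, 5′ to 3′ on the gene's strand, with ACGTG or GCGTG on either strand in capitals: ADM at chr11:10304823-10305072 (+), DDIT4 at chr10:72273674-72273923 (+), HK2 at chr2:74833877-74834126 (+) and SLC2A1 at chr1:42958869-42959118 (-).
ADM: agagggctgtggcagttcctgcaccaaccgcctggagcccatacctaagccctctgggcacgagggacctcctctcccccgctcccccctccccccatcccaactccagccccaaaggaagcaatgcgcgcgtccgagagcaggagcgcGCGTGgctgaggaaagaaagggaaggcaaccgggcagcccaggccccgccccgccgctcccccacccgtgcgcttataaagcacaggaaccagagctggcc
DDIT4: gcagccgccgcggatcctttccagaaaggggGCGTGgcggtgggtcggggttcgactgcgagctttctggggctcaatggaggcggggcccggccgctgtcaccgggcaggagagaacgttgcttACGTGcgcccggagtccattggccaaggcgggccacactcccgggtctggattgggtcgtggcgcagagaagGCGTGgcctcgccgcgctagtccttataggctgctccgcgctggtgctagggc
HK2: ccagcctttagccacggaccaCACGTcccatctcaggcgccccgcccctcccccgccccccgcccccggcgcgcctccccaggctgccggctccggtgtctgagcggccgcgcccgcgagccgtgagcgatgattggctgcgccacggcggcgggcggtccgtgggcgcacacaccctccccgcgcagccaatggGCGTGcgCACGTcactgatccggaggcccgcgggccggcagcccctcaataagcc
SLC2A1: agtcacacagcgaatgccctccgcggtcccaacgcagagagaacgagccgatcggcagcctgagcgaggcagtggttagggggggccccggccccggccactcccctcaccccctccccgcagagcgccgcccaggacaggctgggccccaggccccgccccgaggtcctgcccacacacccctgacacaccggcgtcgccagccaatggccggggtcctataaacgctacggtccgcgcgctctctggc
The ADM window held 1 core, GCGTG, 101 to 97 bases before the start. The DDIT4 window held 3, an ACGTG at 125 to 121 and GCGTG at 219 to 215 and at 53 to 49 bases. The HK2 window held 3, of which 2 were ACGTG on the opposite strand, and the nearest to the start lay 48 to 44 bases before it. A second HK2 window, chr2:74834920-74835169 (+), held 6 matches, 4 of ACGTG and 2 of GCGTG. The ACGTG matches there came from 2 copies of the E-box CACGTG, which contains ACGTG on both strands and binds other factors too. The SLC2A1 window held 0. Among the 35116 promoters of the table cut to the same length, 18.5% held ACGTG, 32.2% GCGTG, 43.2% either and 19.4% more than 1 match, while 6.34% held the E-box. The AP-1 element TGANTCA (6.57% of promoters) and the C/EBP-ATF element TGATGNAAN (3.13%) had 0 matches on either strand in the 5 windows. These are matches of letters, and 0 matches says only that the letters are not in these windows.

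Values are on the log2 scale, so a difference of 1 is a doubling. Array medians lay between 5.94 and 6.14, and their lower quartiles, taken here as the range of signal little above background, between 3.93 and 4.02. Replicate arrays correlated over probe sets with r from 0.9911 for the SF539 siRNA2 pair to 0.9981, and the median SD of that pair was 0.126 against 0.0658 to 0.0914 in the other groups. Where leaving out both of its arrays made or ended a call of a named gene in SF539, or moved a called value by over 1.5 times, that value is given. Whether replicates were separate cultures is not in the labels, so the p-values reflect the spread of these arrays alone, which may be technical, and having 2 arrays per group limits precision. PARK2 itself was not analysed here, so the knockdown was not checked. No untransfected array was part of the design, so a difference from scramble can lie with either side. The interferon-stimulated gene IFI27 read 12.94 to 12.98 in the SNB19 scramble group, 3.97 to 4.75 with the PARK2 siRNAs in SNB19, and 12.73 to 12.94 on all SF539 arrays. The part of that difference in the results below was not tested. Of the glial markers VIM and CD44 were high in both lines (11.92 to 13.65), whereas GFAP (6.72 to 10.68), S100B, SOX2 and FABP7 were well above background in SNB19 only and read between 2.79 and 4.97 in SF539. The glial transporter gene SLC1A3 was above background in both lines (8.75 to 9.94 in SNB19, 6.22 to 8.53 in SF539), EGFR was higher in SF539 (7.82 to 8.43) than in SNB19 (6.93 to 7.32), and OLIG2 was near background in both. Markers of leukocytes (PTPRC, CD14), endothelium (CDH5, TEK) and epithelium (EPCAM, CDH1) read at most 4.37, CD3E, PECAM1, VWF and KRT8 read 4.80 to 6.18, and the epithelial keratin KRT18 read 8.25 to 10.14.

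With the PARK2 siRNAs all 6 genes were lower in SNB19, by 1.81-fold (SLC2A1) to 6.01-fold (ADM), and 5 of them were higher in SF539, by 1.49-fold (HK2) to 2.98-fold (DDIT4). VEGFA was the exception in SF539. Without both SF539 siRNA2 arrays 4 genes, all but VEGFA and HK2, were called higher there. Over probe sets, 12 of 12 were called lower in SNB19, where 14.4% of all probe sets were, and 7 of 12 were called higher in SF539, where 5.03% were. A call is a limma adjusted p below 0.05 over all 16376 probe sets. The median change of the 6 genes, each by its brightest probe set, was -1.54 in SNB19 and 0.75 in SF539. Over all probe sets it was 0 and -0.02. The test of the difference between the lines (SF539 effect minus SNB19 effect) called 12 of 12 higher, beside 8.57% of all. The median difference of the 6 genes, again by their brightest probe sets, was 2.31. Lower calls in SNB19 together with higher calls in SF539 were made for 103 probe sets (0.629%), of which 7 were probe sets of ADM, STC1, DDIT4, HK2 and SLC2A1. The 6 genes were chosen with earlier results of these data known, so these counts give no independent support to a line difference. Centring each array on its median instead moved the median of all probe sets to 0.13 in SNB19, -0.06 in SF539 and -0.19 for the difference, and the higher calls went from 49.5% to 70.4%, from 55.4% to 42.5% and from 52.9% to 24.9% of all calls. On that scale the 6 genes still changed by -2.46 to -0.73 in SNB19 and differed between the lines by 1.25 to 3.31, and VEGFA in SF539 was at -0.04. In bulk RNA, fewer cells that express a gene and less RNA per cell cannot be told apart.

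**Figure D1:**
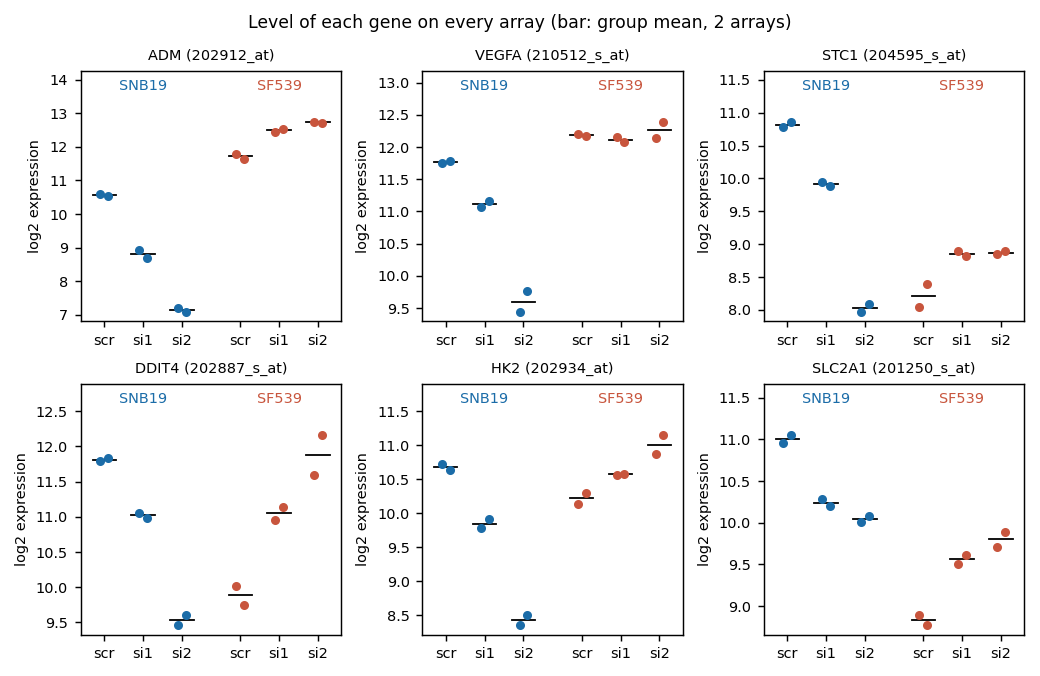
Log2 expression of each gene's brightest probe set on all 12 arrays (points, 2 per group) with the group mean (bar), for scramble (scr), siRNA1 (si1) and siRNA2 (si2) in SNB19 (blue) and SF539 (red). All SNB19 siRNA arrays lie below the scramble arrays, and in SF539 all siRNA arrays lie above them except for VEGFA.

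ADM had the largest fall of the 6 genes in SNB19. It read 10.60 and 10.54 on the SNB19 scramble arrays, 8.93 and 8.69 with siRNA1, and 7.22 and 7.09 with siRNA2. In SF539 ADM read 11.80 and 11.63 with scramble, 12.45 and 12.52 with siRNA1, and 12.74 and 12.72 with siRNA2. No 2 of the 6 groups overlapped, and their order ran from SF539 siRNA2 down through SF539 siRNA1 and scramble to SNB19 scramble, siRNA1 and siRNA2. ADM fell by 2.59 ± 0.09 in SNB19 (SE, 2 arrays per group, limma adjusted p = 2.58e-08) and rose by 0.89 ± 0.09 in SF539 (limma adjusted p = 0.000584). The line difference, 3.48 ± 0.13 (limma adjusted p = 1.51e-07), was the largest of the 6.

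VEGFA fell in SNB19 and was not called in SF539. Its brightest probe set (210512_s_at) read 11.76 and 11.79 with scramble in SNB19, 11.07 and 11.17 with siRNA1, and 9.44 and 9.76 with siRNA2. In SF539 VEGFA read 12.20 and 12.17 with scramble, 12.15 and 12.08 with siRNA1, and 12.14 and 12.39 with siRNA2. The SNB19 groups were apart, whereas the SF539 siRNA arrays lay on both sides of the scramble arrays. The fall in SNB19 was 1.41 ± 0.11 (limma adjusted p = 6.97e-06). The SF539 change was 0.00 ± 0.11 with a 95% interval from -0.23 to 0.24 (limma adjusted p = 0.996), so a change as large as that of ADM lies outside the interval, and one of under 0.24 does not. The difference between lines was 1.42 ± 0.15 (limma adjusted p = 0.000172).

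The other 3 VEGFA probe sets gave the same pattern. In SNB19 all 3 fell, with changes of -1.62 ± 0.09 (212171_x_at), -1.68 ± 0.23 (210513_s_at) and -1.38 ± 0.11 (211527_x_at), with limma adjusted p up to 0.000395. In SF539 their changes were -0.14, -0.12 and -0.31, with limma adjusted p from 0.109 to 0.811, and none was called. The lowest of these, 211527_x_at, read 7.99 and 8 with SF539 scramble and 7.55 to 7.76 on the siRNA arrays, below scramble without overlap. An x_at set can bind related transcripts, by the maker's naming. The line differences were 1.48, 1.55 and 1.07, and the call for 210513_s_at was lost without SNB19 scramble replicate 1 (1.48, limma adjusted p = 0.0511). That probe set also had the widest replicate gap of the 12, reading 4.6 and 5.55 with siRNA2 in SNB19. Across the 12 arrays the 4 VEGFA probe sets correlated with r from 0.917 to 0.971 after centring on each line.

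STC1 fell in SNB19 and rose in SF539 on its 2 brighter probe sets. On 204595_s_at it read 10.78 and 10.86 with scramble in SNB19, 9.95 and 9.88 with siRNA1, and 7.97 and 8.09 with siRNA2. In SF539 STC1 read 8.04 and 8.39 with scramble, 8.89 and 8.82 with siRNA1, and 8.85 and 8.89 with siRNA2. The SNB19 siRNA2 arrays thus came down to the SF539 scramble range, where the groups overlapped, and the 2 SF539 siRNA groups overlapped each other. STC1 fell by 1.85 ± 0.10 in SNB19 (limma adjusted p = 5.95e-07) and rose by 0.65 ± 0.10 in SF539 (limma adjusted p = 0.00419). The rise was not called with the SF539 arrays fitted alone (0.65, limma adjusted p = 0.0589). On 204597_x_at STC1 changed by -1.72 and 0.71 in SNB19 and SF539, both called. The dimmest set, 204596_s_at, fell by 1.61 in SNB19 but changed by 0.13 ± 0.16 in SF539 (limma adjusted p = 0.704), where it read 4.12 to 4.44, little above the lower quartile of the arrays. The line differences of the 3 probe sets were 2.50, 2.43 and 1.74, all called.

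DDIT4 moved by nearly equal amounts in opposite directions. It read 11.79 and 11.83 with scramble in SNB19, 11.05 and 10.98 with siRNA1, and 9.46 and 9.61 with siRNA2. In SF539 DDIT4 read 10.02 and 9.75 with scramble, 10.95 and 11.14 with siRNA1, and 11.60 and 12.16 with siRNA2. Groups of the 2 lines therefore changed places. With scramble the SNB19 mean (11.81) was above the SF539 mean (9.89), with siRNA1 the groups overlapped (11.02 and 11.05), and with siRNA2 SNB19 (9.54) was below SF539 (11.88). DDIT4 fell by 1.54 ± 0.15 in SNB19 (limma adjusted p = 3.52e-05) and rose by 1.58 ± 0.15 in SF539 (limma adjusted p = 0.00037). The rise was 1.16 without both SF539 siRNA2 arrays and was still called. The line difference was 3.11 ± 0.21 (limma adjusted p = 6.01e-06).

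SLC2A1 had the smallest fall of the 6 genes in SNB19 and a rise of the same size in SF539. On 201250_s_at it read 10.96 and 11.05 with scramble in SNB19, 10.29 and 10.20 with siRNA1, and 10.01 and 10.08 with siRNA2. In SF539 SLC2A1 read 8.89 and 8.77 with scramble, 9.50 and 9.61 with siRNA1, and 9.71 and 9.89 with siRNA2. No groups overlapped, and all SNB19 arrays were above all SF539 arrays, with the gap between the lines narrowing from scramble to siRNA2. The change was -0.86 ± 0.09 in SNB19 (limma adjusted p = 5.06e-05) and 0.85 ± 0.09 in SF539 (limma adjusted p = 0.000552), and the line difference was 1.71 ± 0.12 (limma adjusted p = 1.06e-05). The dim probe set 201249_at read 4.15 to 6.36 and correlated with the first with r = 0.897 over 12 arrays after centring on each line. It changed by -1.11 in SNB19 and 0.67 in SF539, and the SF539 call was lost without scramble replicate 2 (0.50, limma adjusted p = 0.0616) and without both siRNA2 arrays (0.40, limma adjusted p = 0.118).

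HK2 also fell in SNB19 and rose in SF539, the rise being the smallest of the 5. HK2 read 10.72 and 10.64 with scramble in SNB19, 9.78 and 9.91 with siRNA1, and 8.35 and 8.50 with siRNA2. In SF539 HK2 read 10.14 and 10.30 with scramble, 10.57 and 10.58 with siRNA1, and 10.87 and 11.15 with siRNA2. The groups were all apart, and the 2 lines interleaved, SNB19 scramble lying between the SF539 siRNA2 and siRNA1 groups. HK2 fell by 1.55 ± 0.10 in SNB19 (limma adjusted p = 2.52e-06) and rose by 0.58 ± 0.10 in SF539 (limma adjusted p = 0.00779). The SF539 call was lost without scramble replicate 1 (0.50, limma adjusted p = 0.0721), without both siRNA2 arrays (0.36, limma adjusted p = 0.0558) and with the SF539 arrays alone (limma adjusted p = 0.0723). The line difference was 2.12 ± 0.14 (limma adjusted p = 6.61e-06).

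**Figure D2:**
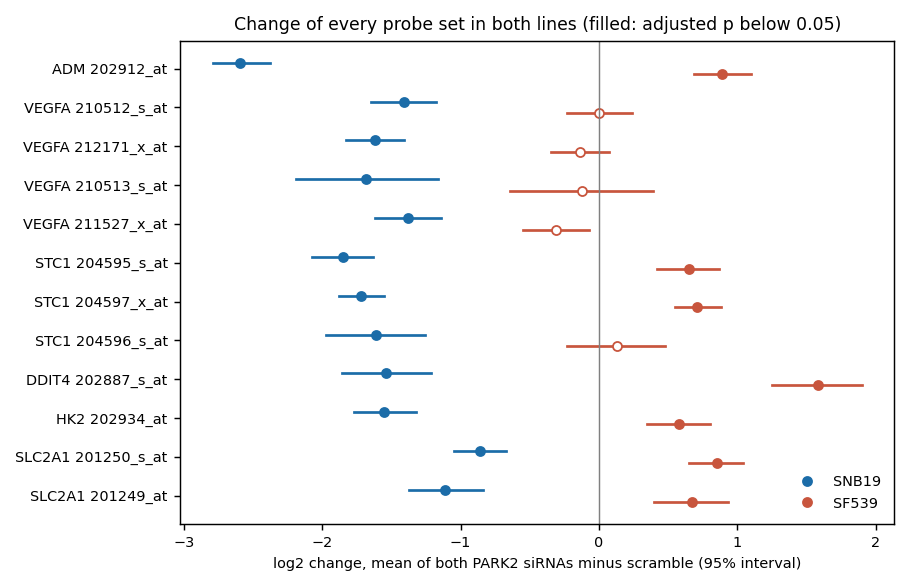
Log2 change of all 12 probe sets with the PARK2 siRNAs (mean of both minus scramble; 95% interval of the fit) in SNB19 (blue) and SF539 (red), with filled points for an adjusted p below 0.05. All 12 SNB19 points lie left of 0, from -2.59 to -0.86, and the 7 filled SF539 points lie right of it, while the VEGFA points in SF539 are open.

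The next question was whether both PARK2 siRNAs gave these changes. In SNB19 each did, with 12 of 12 probe sets called lower for siRNA1 (11.5% of all probe sets) and 12 of 12 for siRNA2 (13.0%). The changes with siRNA1 were -1.76 for ADM, -0.65 for VEGFA, -0.91 for STC1, -0.80 for DDIT4, -0.84 for HK2 and -0.76 for SLC2A1. With siRNA2 ADM changed by -3.41, a 10.7-fold lower level, and STC1 by -2.79. VEGFA, DDIT4 and HK2 changed by -2.18, -2.28 and -2.25, and SLC2A1 by -0.96. Both siRNAs were compared with the same scramble arrays. The siRNA1 call of 210513_s_at (VEGFA) was lost without any 1 of the SNB19 scramble or siRNA1 arrays (limma adjusted p from 0.0775 to 0.132).

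Set against each other without the scramble arrays, the siRNAs separated SLC2A1 from the other 5 genes in SNB19. With siRNA2 the levels of ADM, VEGFA, STC1, DDIT4 and HK2 were lower than with siRNA1 by 2.67-fold to 3.70-fold, and 10 of 12 probe sets were called lower beside 2.17% of all. The differences were -1.65 ± 0.11 for ADM, -1.52 ± 0.12 for VEGFA, -1.89 ± 0.12 for STC1, -1.48 ± 0.17 for DDIT4 and -1.42 ± 0.12 for HK2, with limma adjusted p up to 0.00103. SLC2A1 differed by -0.20 ± 0.10 on 201250_s_at, with a 95% interval from -0.42 to 0.02 (limma adjusted p = 0.368), and by 0.19 ± 0.14 on 201249_at (limma adjusted p = 0.582). Whether SLC2A1 differed from the other genes in this respect was not tested. Among the dimmer VEGFA probe sets the call of 210513_s_at (-1.43) was lost without either siRNA1 array or siRNA2 replicate 1, and that of 211527_x_at (-0.78) without siRNA1 replicate 1 (-0.63, limma adjusted p = 0.0801) or siRNA2 replicate 1 (-0.67, limma adjusted p = 0.0842).

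In SF539 both siRNAs gave rises, siRNA2 in 5 genes and siRNA1 in 4. With siRNA1 5 of 12 probe sets, of ADM, STC1, DDIT4 and SLC2A1, were called higher, beside 0.953% of all. ADM changed by 0.77 ± 0.11, STC1 by 0.64 ± 0.12, DDIT4 by 1.16 ± 0.17 and SLC2A1 by 0.72 ± 0.10, while HK2 changed by 0.36 ± 0.12 (limma adjusted p = 0.165) and VEGFA by -0.07 ± 0.12. Those 4 calls were lost without either siRNA1 array, with limma adjusted p up to 0.114 for ADM and SLC2A1, 0.17 for STC1 and 0.138 for DDIT4, and with the SF539 arrays fitted alone (limma adjusted p from 0.137 to 0.226). The STC1 call was also lost without SF539 scramble replicate 1 (0.47, limma adjusted p = 0.101) or either SNB19 siRNA1 array (limma adjusted p = 0.0524). With siRNA2 7 of 12 were called higher, beside 7.05% of all, and the changes were 1.02 for ADM, 0.65 for STC1, 1.99 for DDIT4, 0.79 for HK2 and 0.97 for SLC2A1. The STC1 call with siRNA2 was lost with the SF539 arrays alone (limma adjusted p = 0.0638) and with array weights (limma adjusted p = 0.055). VEGFA changed by 0.08 ± 0.12 (limma adjusted p = 0.747). Between the siRNAs in SF539 only DDIT4 was called, 1 of 12 probe sets beside 1.14% of all, at 0.83 ± 0.17 (limma adjusted p = 0.0449). It kept that call in 7 of 22 alternatives and lost it without either SF539 siRNA1 array (limma adjusted p = 0.226 and 0.161), without SF539 siRNA2 replicate 2 (0.56, limma adjusted p = 0.115) or without any 1 SNB19 array (limma adjusted p up to 0.082). On the other hand, leaving out SF539 siRNA2 replicate 1 raised the count of genes called between the siRNAs to 3, HK2 at 0.58 and SLC2A1 at 0.34 joining DDIT4.

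**Figure D3:**
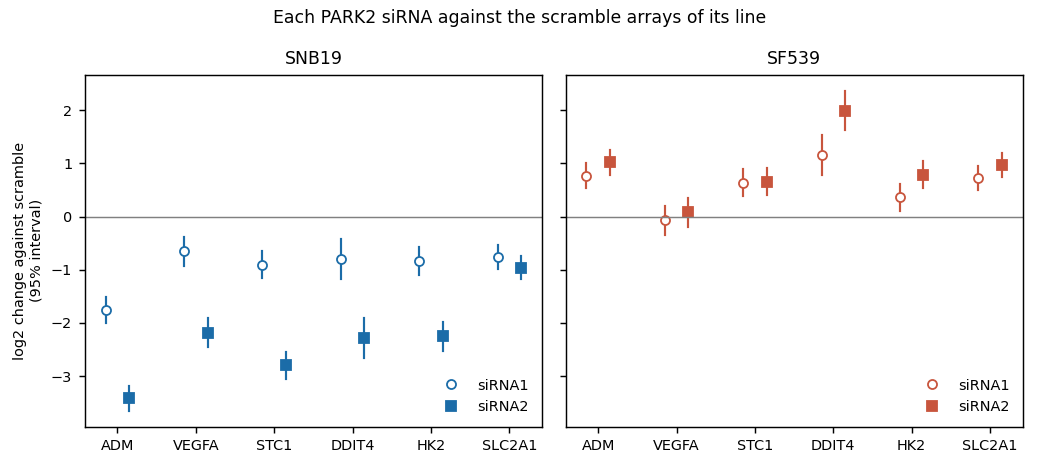
Log2 change against the scramble arrays of the same line for siRNA1 (open circles) and siRNA2 (filled squares), each gene by its brightest probe set, with 95% intervals. In SNB19 the siRNA2 points lie well below the siRNA1 points for all genes but SLC2A1 (-0.76 and -0.96), and in SF539 the DDIT4 points are the farthest apart (1.16 and 1.99).

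The starting levels of the 2 lines differed for all 6 genes. Comparing the scramble groups, ADM and VEGFA were higher in SF539, and STC1, DDIT4, HK2 and SLC2A1 were lower. The 5 higher probe sets stood beside 22.7% of all called higher, and the 7 lower ones beside 21.6%. ADM was higher by 1.15 ± 0.11. VEGFA was higher by 0.41 ± 0.12 on its brightest probe set, by 0.66, 1.03 and 1.54 on the other 3 (limma adjusted p from 4.2e-06 to 0.00934), and by 0.91 for the mean of its probe sets. The other differences were -2.61 ± 0.12 for STC1, -1.93 ± 0.17 for DDIT4, -2.17 ± 0.10 for SLC2A1 and -0.46 ± 0.12 for HK2. The VEGFA call of 210512_s_at was lost without any 1 of the 4 scramble arrays (limma adjusted p from 0.0565 to 0.084) and under quantile normalization, and VEGFA's 210513_s_at (1.03) lost its call without replicate 2 of either scramble group. The HK2 call was lost without SNB19 scramble replicate 1 (-0.43, limma adjusted p = 0.0546) or SF539 scramble replicate 1 (-0.38, limma adjusted p = 0.0599), and under median centring.

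Other genes that low oxygen induces followed the members in SNB19. Of 29 listed genes 20 were measured, each by its brightest probe set, and 14 fell (16.6% of all genes were called lower) while VLDLR and CXCR4 rose (14.7% higher). The median change of the list was -0.75, beside -0.01 over all genes. IGFBP3, a carrier of insulin-like growth factors, fell by 1.64 ± 0.09 (limma adjusted p = 7.32e-07) and BNIP3, a mitophagy receptor, by 0.90 ± 0.08 (limma adjusted p = 1.57e-05). PFKFB3, which makes the activator of phosphofructokinase, fell by 0.70 ± 0.08 and the histone demethylase KDM3A by 0.78 ± 0.09. The lipoprotein receptor VLDLR rose by 0.87 and the chemokine receptor CXCR4 by 0.41. These last 2 were named after their values were seen. Leaving out 1 array gave 12 to 17 lower. With siRNA2 against siRNA1 in SNB19, 9 of the 20 were lower and 0 higher, beside 2.48% of all genes called lower.

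In SF539 3 of the 20 hypoxia-induced genes rose, beside 5.57% of all genes, and 0 fell (3.77%), and the median change was 0.15, beside -0.02 over all genes. IGFBP3 was at -0.28 on its brightest probe set (limma adjusted p = 0.0907). Its second probe set was called lower (-0.42, limma adjusted p = 0.0314), as were the mean of its probe sets (-0.35, limma adjusted p = 0.0305) and the brightest one without siRNA2 replicate 2 (-0.35, limma adjusted p = 0.0123) or without both siRNA2 arrays (-0.46, limma adjusted p = 0.0115). BNIP3 rose by 0.77 ± 0.08 (limma adjusted p = 0.000446), the collagen prolyl hydroxylase P4HA1 by 0.69 ± 0.16 (limma adjusted p = 0.0246) and the mitochondrial adenylate kinase AK4 by 0.86 ± 0.17 (limma adjusted p = 0.0141). In SNB19 the same 3 had fallen, P4HA1 by 0.89 and AK4 by 1.16. The P4HA1 call in SF539 was lost without any 1 of the SF539 scramble or siRNA1 arrays (limma adjusted p from 0.063 to 0.116) and with the SF539 arrays alone (0.154), and without both siRNA2 arrays its rise was 0.29 (limma adjusted p = 0.0401). The AK4 call was lost without both siRNA2 arrays (0.76, limma adjusted p = 0.0703). The number higher in SF539 was 11 without SF539 siRNA2 replicate 1. The test between lines called 14 of the 20 higher, beside 10.2% of all genes, and 0 lower.

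Few of the measured genes of the HIF machinery were called. Of 17 listed genes 11 were measured, of which 2 fell and 1 rose in SNB19 (16.6% and 14.7% of all genes) and 0 were called in SF539. The prolyl hydroxylase genes EGLN1, EGLN2 and EGLN3 were not measured, nor were HIF1AN, HIF3A and RBX1, so the oxygen-sensing step itself is not covered. ARNT had group means from 3.67 to 4.02, near background. HIF1A, the regulated alpha subunit itself, changed by 0.04 ± 0.09 in SNB19 and -0.02 ± 0.09 in SF539, with means from 12.56 to 13.16 in the 6 groups. EPAS1 (HIF2 alpha) changed by -0.02 and 0.12. Both are controlled mostly through protein stability, which arrays do not measure, and they were named after their values were seen. CITED2, which competes with HIF for its coactivator, fell by 0.82 ± 0.13 in SNB19 (limma adjusted p = 0.00121) and was at 0.09 in SF539. VHL (-0.32) had group means from 2.60 to 2.99, below the arrays' lower quartiles, and its SNB19 call and that of ELOB, a subunit of the VHL ligase (0.27), were lost without either SNB19 scramble array (limma adjusted p from 0.0938 to 0.167), without siRNA1 replicate 2 (0.0846 and 0.0536) or without siRNA2 replicate 1 (0.0798 and 0.0611). The other ELOB probe set changed by -0.17 (limma adjusted p = 0.291) in SNB19, and the mean of its probe sets by 0.05 (limma adjusted p = 0.657).

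Of 15 measured genes of glycolysis below hexokinase, 8 were called lower in SNB19 (16.6% of all genes), 0 higher and 7 not called, with a median change of -0.25. The phosphofructokinase gene PFKP fell by 0.71 ± 0.09 (limma adjusted p = 0.000193), the enolase ENO1 by 0.44 ± 0.09, the mutase PGAM1 by 0.39 ± 0.08 and the kinase PGK1 by 0.31 ± 0.07. The count was 3 without SNB19 scramble replicate 1, where ENO1 was lost (-0.39, limma adjusted p = 0.0569), 4 without scramble replicate 2, where PGK1 was lost (-0.30, limma adjusted p = 0.0572), and 4 with median centring. In SF539 LDHA, which makes lactate, was the 1 gene called higher (5.57% of all genes), at 0.29 ± 0.07 (limma adjusted p = 0.0297), a call kept in 10 of 23 alternatives and lost without any 1 of the SNB19 siRNA, SF539 scramble or SF539 siRNA1 arrays and without both SF539 siRNA2 arrays (limma adjusted p from 0.0536 to 0.128). LDHA stood at 8.67 in SNB19 and 12.82 in SF539 with scramble, the reverse of the order of SLC2A1.

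Of 21 other listed glucose transporters, hexokinases and their regulators 9 were measured. SLC2A2 and SLC2A4 had group means of at most 2.76 and 3.11, below the arrays' lower quartiles, and TXNIP had an SE of 0.58. Changes of these genes could go unseen. SLC2A5, the fructose transporter GLUT5, was the 1 called in either line for the mean of both siRNAs. It was 1 of 9 lower in SNB19 beside 16.6% of all genes and 1 of 9 higher in SF539 beside 5.57%. In SNB19 its brightest probe set had means of 4.90 with scramble and 3.94 and 3.99 with the siRNAs, the latter within the range of the arrays' lower quartiles, so it was called lower (limma adjusted p = 0.00983) with no reliable size. In SF539 it rose by 1.59 ± 0.22 (limma adjusted p = 0.00264). The SNB19 call was lost without scramble replicate 1 (limma adjusted p = 0.124), the SF539 call without both siRNA2 arrays (1.07, limma adjusted p = 0.0572), and the other SLC2A5 probe set changed by 0.22 and 0.11 without a call. HK1, the housekeeping hexokinase, changed by -0.12 and -0.05, and SLC2A3, the neuronal glucose transporter, by -0.63 ± 0.31 and 0.43 ± 0.31, none called. The SLC2A3 group means in SNB19 were 7.64 (scramble), 7.89 (siRNA1) and 6.13 (siRNA2), so only siRNA2 lay below scramble. In SF539 they were 7.54, 7.59 and 8.36. With siRNA2 against siRNA1 in SNB19, 1 of the 9 genes was called lower, beside 2.48% of all genes. HK1 and SLC2A3 were named after their values were seen.

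Of 13 measured genes of related hormones and receptors 2 fell and 2 rose in SNB19 (16.6% and 14.7% of all genes), and 1 fell and 1 rose in SF539 (3.77% and 5.57%), counts near those shares. VEGFC, the lymphatic vessel growth factor, fell in both lines, by 2.04 ± 0.09 in SNB19 (limma adjusted p = 1.55e-07) and by 0.53 ± 0.09 in SF539 (limma adjusted p = 0.00748), the second call being lost without both siRNA2 arrays (-0.40, limma adjusted p = 0.053). STC2, the paralogue of STC1, fell by 2.68 ± 0.25 in SNB19 (limma adjusted p = 2.84e-05) and was at 0.19 ± 0.25 in SF539, where it was called higher only without siRNA2 replicate 1 (0.47, limma adjusted p = 0.0252) and was at -0.22 without both siRNA2 arrays. KDR, the main VEGFA receptor, rose by 0.99 ± 0.14 in SNB19, its group means there being 4.59 (scramble), 6.08 (siRNA1) and 5.07 (siRNA2). The coreceptor NRP2 rose by 0.44 and 0.38 on its brightest probe set, but the mean of its probe sets changed by -0.04 and 0.11, and the SF539 call was lost without scramble replicate 1 (limma adjusted p = 0.0613).

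DDIT4 is also known to be induced through ATF4 and by glucocorticoids, and its target is mTORC1. Whether these inputs moved DDIT4 here was not tested. Of 9 measured ATF4-related genes 6 fell in SNB19 (16.6% of all genes), the stress regulator DDIT3 by 2.42 ± 0.07 (limma adjusted p = 9.62e-09), ATF3 by 1.11, ATF4 by 1.04 and CEBPG by 0.34. In SF539 0 of these 9 were called higher (5.57% of all genes) and 1 lower (3.77%). The 1 lower was DDIT3, which fell by 0.29 (limma adjusted p = 0.042), a call kept in 9 of 23 alternatives. That call was lost without any 1 SNB19, SF539 scramble or SF539 siRNA1 array. ATF4 was at -0.25 there, and was called lower without SF539 siRNA2 replicate 2 (-0.42, limma adjusted p = 0.026) or without both siRNA2 arrays (-0.45, limma adjusted p = 0.0422). The CEBPG call in SNB19 was lost without either scramble array (limma adjusted p = 0.0947 and 0.0575), and in SF539 CEBPG was called lower without siRNA2 replicate 2 (-0.30, limma adjusted p = 0.0488). Of 6 glucocorticoid-induced genes TSC22D3 (GILZ) alone fell in SNB19 (16.6% of all genes), by 0.55, with the call lost without either scramble array (limma adjusted p = 0.0683 and 0.0975). In SF539 it was at 0.44 and was called higher only without siRNA2 replicate 1 (0.58, limma adjusted p = 0.00255), while without both siRNA2 arrays it was at -0.11. Of 6 measured mTORC1 genes 1 rose and 1 fell in SNB19 (14.7% and 16.6% of all genes). MTOR rose by 0.48 (0.23 without a call for the mean of its probe sets) and its activator RHEB fell by 0.27, though RHEB's call was lost without either scramble array and the mean of its probe sets changed by 0.09.

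**Figure D4:**
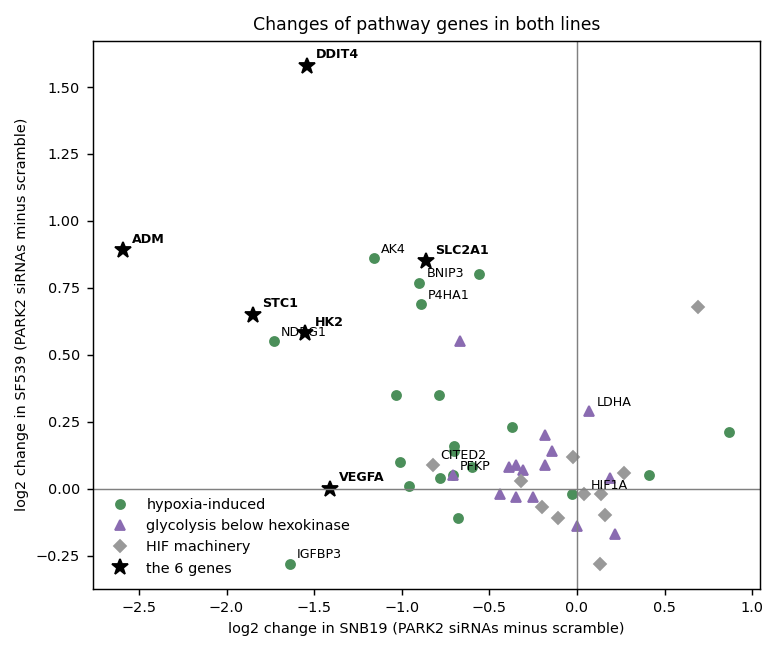
Log2 change in SNB19 (horizontal) and SF539 (vertical) of the 6 genes (stars) and of measured hypoxia-induced, glycolysis and HIF machinery genes, each by its brightest probe set. The stars of ADM, STC1, DDIT4, HK2 and SLC2A1 lie in the upper left field with BNIP3, P4HA1 and AK4, VEGFA lies at 0.00 in SF539, and HIF1A lies near the origin.

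The genes most like the members across the arrays were looked for among 1433 genes, by Pearson r over 12 arrays after centring on each line. These points share the 6 groups, so r mostly reflects the group means. Closest to the mean of the 6 were PDGFRL (r = 0.985), the glycogen regulator PPP1R3C (r = 0.969), BNIP3 (r = 0.967), the hypoxia marker NDRG1 (r = 0.960) and the activin receptor ACVR2A (r = 0.957). ADM shared PDGFRL (r = 0.987), PPP1R3C and ACVR2A, and HK2 had NDRG1 (r = 0.977), PDGFRL and PPP1R3C. VEGFA was closest to NFIL3 (r = 0.985), KDM3A and PPM1B, whose changes in SF539 were 0.03, 0.04 and -0.08. STC1 was closest to PFKFB3 (r = 0.966), NFIL3 and AK4, and DDIT4 to BNIP3 (r = 0.988), the creatine transporter SLC6A8 (r = 0.978) and PLCB4. SLC2A1 was closest to the clock repressor PER2 (r = 0.989), TBL1X (r = 0.971) and the clock output gene DBP (r = 0.955).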

How the data were processed

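Total RNA of both lines was hybridised to Affymetrix arrays, 12 in all. The authors deposited log2 expression values per probe set, ranging from 2.01 to 14.1. Partek is the 1 tool named per the submitters' processing notes, and how background, normalization and summary were done, and on which build, is not given in the sources used here. The values carry no detection call. Of 16376 probe sets 14038 had 1 gene in the platform annotation, 792 several and 1546 none, and 14028 were matched by Entrez identifier to RefSeq (GRCh38.p14). A gene outside the 6 stands by the probe set with its highest mean.

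Groups were taken from the labels. One limma model (version 3.58.1, R 4.3.3, lmFit and eBayes, 6 residual and 3.88 prior degrees of freedom) was fitted to all 6 groups, with two-sided tests and Benjamini-Hochberg adjustment over all 16376 probe sets at 0.05. The effect in a line is the mean of both siRNAs minus scramble. The script was tested on simulated data. Members and lists were chosen with earlier results of these data known, and the lists got counts and medians but no set test. The genes named are, from each list, up to 4 called genes by smallest p per line and those called in opposite directions, and the 5 (mean of members) or 3 (each member) genes of highest r with an SD of at least 0.3 after centring; exceptions are marked. Alternatives were a replicate block, array weights, median centring, quantile normalization, fitting 1 line alone, dropping the dimmest 40% of probe sets, the brightest or mean probe set per gene, a robust prior with a trend, a minimum of 1.5-fold and each array left out, whose lone partner is taken to vary like the other groups. Leaving out both SF539 siRNA2 arrays was chosen after seeing the data. Plots used matplotlib 3.10.9.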

Additional observations from a re-analysis of the deposited data

Results flagged for a closer look

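All 12 probe sets are listed here because the change with the PARK2 siRNAs differed between the lines by the interaction test of the fit. The genes were chosen with earlier results of these data known, so these calls are not independent evidence. The SF539 change minus the SNB19 change was 3.48 for ADM, 3.11 for DDIT4, 2.12 for HK2, 1.71 and 1.77 for the SLC2A1 probe sets, 2.50, 2.43 and 1.74 for those of STC1, and 1.42, 1.48, 1.55 and 1.07 for those of VEGFA. For VEGFA the difference comes with a fall in SNB19 and no call in SF539. Groups of 2 arrays were too small to look for outlying arrays.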

How the results depend on the processing

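For the 12 probe sets, 262 of 263 alternative values kept their side of the threshold in SNB19, 250 of 263 in SF539 and 248 of 251 for the line difference. Of the called effects 0 were reversed. Effects that were not called could change sign. In SF539 VEGFA ran from -0.14 to 0.06 on its brightest probe set and from -0.40 to 0.15 on 210513_s_at. Same-numbered arrays showed no strong shared deviation: over 15 pairs of groups their deviations correlated with r from -0.2 to 0.0954. Whether same-numbered arrays were handled together cannot be told from this. With the replicate block 0 members differed between the siRNAs in SF539, where the main count was 1 (DDIT4, each gene by its brightest probe set), while the dim SLC2A1 set 201249_at gained a call (0.53, limma adjusted p = 0.043). That count was also 0 with 1 line alone, quantile normalization, median centring, array weights or the 1.5-fold minimum, and 0 to 3 with 1 array left out. Members called in SF539 (5) numbered 3 with 1 line alone and 1 with the 1.5-fold minimum, and calls of single siRNAs (21) numbered 8 with that minimum. Probe sets called in SF539 (1488) numbered 298 with 1 line alone, 933 with array weights, 53 with the 1.5-fold minimum and 679 (without SF539 scramble replicate 1) to 3070 (without SF539 siRNA2 replicate 1) with 1 array left out. In SNB19 (4679) they numbered 659 with the minimum and 2840 to 5797 with 1 array left out, and for the line difference (2653) 432 and 1522 to 4228, the lowest of both without SNB19 scramble replicate 1. The hypoxia-induced list had 3 lower in SNB19, 0 higher in SF539 and 6 different between lines with the minimum, and 1 higher in SF539 with 1 line alone; with 1 array left out 2 to 11 were higher in SF539. Glycolysis genes lower in SNB19 numbered 4 with median centring, 0 with the minimum and 3 to 8 with 1 array left out. With the mean of probe sets NRP2 (-0.0429) and RHEB (0.0904) reversed in SNB19. A higher minimum and fewer arrays make calls harder by construction; the cause of the other shifts was not tested. Gene-level settings gave no probe set counts, and 1 line alone no values between lines. Signal near background limits STC1 204596_s_at and SLC2A1 201249_at.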

Other observations

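The likeness of SLC2A1 to PER2 and DBP led to a list of 18 circadian clock genes, drawn up after these values were seen, so its counts support nothing. Of 13 measured, 7 were lower and 1 higher in SNB19 (16.6% and 14.7% of all genes), and 4 were higher and 0 lower in SF539 (5.57% and 3.77%). DBP, a clock output transcription factor, changed by -1.02 ± 0.16 in SNB19 and 0.96 ± 0.16 in SF539, and the period gene PER2 by -0.81 ± 0.09 and 0.85 ± 0.09 (SE, limma adjusted p up to 0.00548). HLF fell by 0.63 ± 0.10 in SNB19 and was called higher in SF539 (limma adjusted p = 0.000148), where it read 3.42 and 3.51 with scramble, below the arrays' lower quartiles, and 4.5 to 5.14 with the siRNAs, so the size of that rise is not reliable. PER2 read 8.87 and 9.04 with scramble in SNB19 and 8.02 to 8.31 with the siRNAs, and 7.23 and 7.27 with scramble in SF539 and 7.94 to 8.38 with the siRNAs, with no overlap in either line. BMAL1, an activator of the clock, fell by 0.97 ± 0.14 in SNB19 and was at -0.10 ± 0.14 in SF539. CLOCK, its partner, rose in both lines, by 0.51 and 0.58 ± 0.10. The alternatives were not run for these genes.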
